A study of Xenopus tropicalis with 2 samples.

Results

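The genes examined are 9 enzymes and binding proteins of DNA methylation and its removal, namely the writers dnmt1 and dnmt3a, the recruiter uhrf1, the erasers tet2 and tet3, the readers mbd2 and mbd3, and the cofactor enzymes mat2a and idh2. They were taken by name from the list of thyroid hormone receptor (TR) peaks, and each listed name was checked against the gene description beside it. Of the 9 genes, 7 held a listed peak after that check, with 14 peaks among them, where 29.8% of all named protein-coding genes held one. The genes were chosen with results of this list known, so the 7 of 9 is not independent of it. The whole list has 6302 peaks, of which 5214 were paired with 5285 genes. The authors gave a gene each peak that touched its body or the 10 kb before it, as the deposited columns show.

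Cytosine methylation is laid down on new sites by de novo methyltransferases such as dnmt3a and is copied after DNA replication by dnmt1, which uhrf1 guides to half-methylated DNA. TET dioxygenases such as tet2 and tet3 oxidise methylcytosine and so start its removal, using 2-oxoglutarate as a co-substrate. Proteins with a methyl-CpG binding domain bring chromatin complexes such as NuRD to DNA. The enzyme encoded by mat2a makes S-adenosylmethionine, the methyl donor, and the mitochondrial enzyme encoded by idh2 makes 2-oxoglutarate. Thyroid hormone drives amphibian metamorphosis, and TRs are the nuclear receptors that bind it and act on chromatin.

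The data came from chromatin immunoprecipitation (ChIP) with sequencing. The TR ChIP library and the input library, which was not immunoprecipitated, were each made from wild-type Xenopus tropicalis tadpole brain at Nieuwkoop-Faber (NF) stage 62, at metamorphic climax. The tissue was the middle brain with the preoptic area, hypothalamus and thalamus, from tadpoles reared at 25 °C, and 5 µg of crosslinked chromatin went into each precipitation. The polyclonal antiserum was raised to Xenopus TRs, and the labels name no single TR. There was 1 library per group, so no comparison between groups has a replicate check, no test was possible, and the number of animals behind each library is not given in the labels.

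A peak list measures where TR ChIP signal lay, not RNA, so it cannot check the dissection. Of 10 neuron markers, 8 held a peak (exact 95% binomial interval 44.4 to 97.5%), among them tubb3 and snap25, while nefl and nefm held none. Of 8 liver markers 0 did (0 to 36.9%). Of all named genes 29.8% held a peak, a share inside the liver interval and below the neuron interval. The gene lists were chosen with earlier results of these data known, so this comparison is not independent of them and tests no enrichment. No adjustment was made for gene length. The total depth of the libraries is unknown. Across all peaks a median of 24 ChIP fragments covered the summit against a background of 5.53, and the median fold was 4.06.

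Each value given for a peak is the peak's own, from the authors' peak caller. The fold is the deposited enrichment at the summit, and it equals (ChIP fragments + 1) / (background + 1). The fragment numbers were solved from the fold and the deposited p-value. The range in brackets after a fold is an exact 95% Poisson interval of the ChIP fragments, which covers counting error only and leaves out the error of the background. Coordinates are those deposited, and the genome build is not given in the sources used here.

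Peaks fell at the starts of 5 of the 7 genes and only away from the start in the other 2. The summit lay within 1 kb of the gene's own transcription start site (TSS) in dnmt1, tet2, mbd3, mat2a and idh2. By the deposited gene models, both dnmt3a and tet3 had peaks inside the gene or upstream of it and none within 1 kb of the TSS. The RefSeq table has longer models for both, 116 against 83.3 kb for dnmt3a and 53.4 against 46.6 kb for tet3. A start outside the deposited models cannot be placed against these peaks, so the split rests on those models. Over all genes with a peak, 31.4% likewise had no summit within 1 kb of their own TSS, so a share of 2 in 7 is near that background. The other 68.6% had such a summit, which is the share to set beside 5 of 7. Of all named protein-coding genes, with or without a peak, 22% held a summit within 1 kb of the TSS. That share stands beside 5 of all 9 members, which were chosen with results of this list known.

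**Figure D1:**
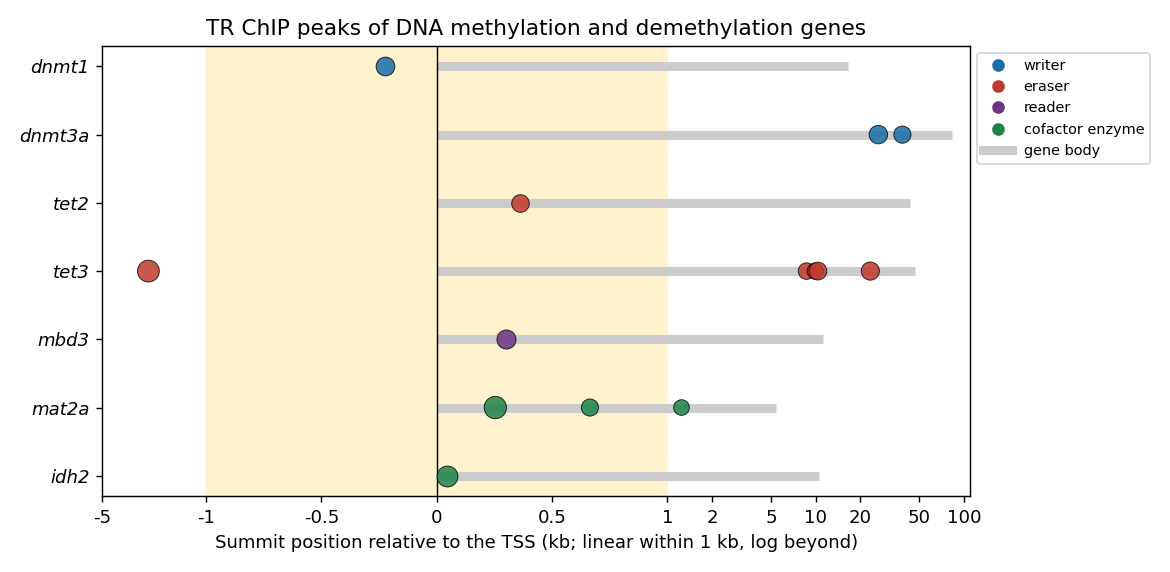
Summit position of each TR ChIP peak relative to the gene's own TSS (kb, linear within 1 kb and logarithmic beyond), with circle area proportional to fold, colour for role, grey bars for the gene body and a shaded band for 1 kb around the TSS. The circles of dnmt1, tet2, mbd3 and idh2 lie in the band, mat2a has 2 in it and 1 beyond, and those of dnmt3a and tet3 all lie outside.

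The maintenance writer dnmt1 (ENSXETG00000022035) had 1 peak, at chr3:126597767-126598381, whose summit lay 224 bp upstream of its TSS. It held 25 ChIP fragments against a background of 4.30, a fold of 4.90 (3.24 to 7.15). This was the sole member peak within 1 kb of a TSS that had its summit upstream of the start, and the other 5 had it downstream. The peak was 615 bp wide and overlapped the start of the gene.

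The de novo writer dnmt3a (ENSXETG00000001232) had 2 peaks, both inside the gene, on the unplaced scaffold KV460514.1. The first, at positions 156674 to 157372, had its summit 26.4 kb past the TSS, with 30 ChIP fragments against a background of 5.53. Its fold was 4.75 (3.25 to 6.71). The second, at 169101 to 169369, lay 38.4 kb past the TSS, with 18 fragments against 3.63 and a fold of 4.10 (2.52 to 6.36). The summits were 11964 bp apart and their folds differed by less than the counting error. The deposited gene model spans 83.3 kb, and that in the RefSeq table (UCB_Xtro_10.0) 116 kb, so a start outside the deposited model cannot be placed against these peaks.

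No peak was listed for uhrf1, which leads dnmt1 to newly copied DNA. Its neighbours with a peak in the RefSeq gene order are fzr1 and kdm4b, and the list places fzr1 on an unplaced scaffold and kdm4b on chromosome 1. The stretch that should hold uhrf1 could therefore not be followed in the list. Of the 5285 genes with a peak 336 could not be named, and a uhrf1 peak among those would be missed. The same limit holds for the genes of the wider pathway lists, given below, that have no listed peak.

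The eraser tet2 (ENSXETG00000014101) had 1 broad peak just inside the gene. It covered chr1:63249655-63250487, with the summit 363 bp downstream of the TSS, and was 833 bp wide, wider than 96.0% of all peaks. It held 51 ChIP fragments, the most of any member peak, against a background of 11.1, which was also the highest among the members and above that of 99.0% of all peaks. Its fold was therefore moderate at 4.31 (3.23 to 5.64). By fold it ranked 2663 of 6302, and by adjusted p-value 866.

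The eraser tet3 (ENSXETG00000012090) had 5 peaks, the most of any member, and none at its start. Of genes with a peak, 1.27% had as many as 5 peaks. That share is not adjusted for gene length, and the deposited tet3 model spans 46.6 kb against a median of 19.6 kb for genes with a peak. The strongest covered chr3:113023737-113024045, 2445 bp upstream of the TSS, with 33 ChIP fragments against a background of 4.15. Its fold of 6.60 (4.61 to 9.20) ranked 524 of 6302.

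The other 4 tet3 peaks lay inside the gene and had lower folds. Summits at 8.66, 9.92 and 10.3 kb past the TSS had 22, 23 and 19 ChIP fragments against backgrounds of 5.06, 5.53 and 3.53. Their folds were 3.80 (2.44 to 5.67), 3.68 (2.39 to 5.44) and 4.42 (2.75 to 6.78), on both sides of the median of 4.06 for all peaks. These 3 summits fell within 1681 bp, between 113010816 and 113012797 on chromosome 3. The last peak, at chr3:112997805-112998520, sat near the middle of the gene, 23.3 kb past the TSS, with 29 fragments against 5.53 and a fold of 4.59 (3.13 to 6.53).

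The upstream peak of tet3 had the higher fold, and its interval overlapped those of all 4 intragenic peaks. Overlap of intervals is no test of a difference, and the order of these peaks was not tested. The deposited tet3 model spans 46.6 kb and the RefSeq model 53.4 kb. Whether the upstream peak lies at the start of a longer transcript was not tested.

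**Figure D2:**
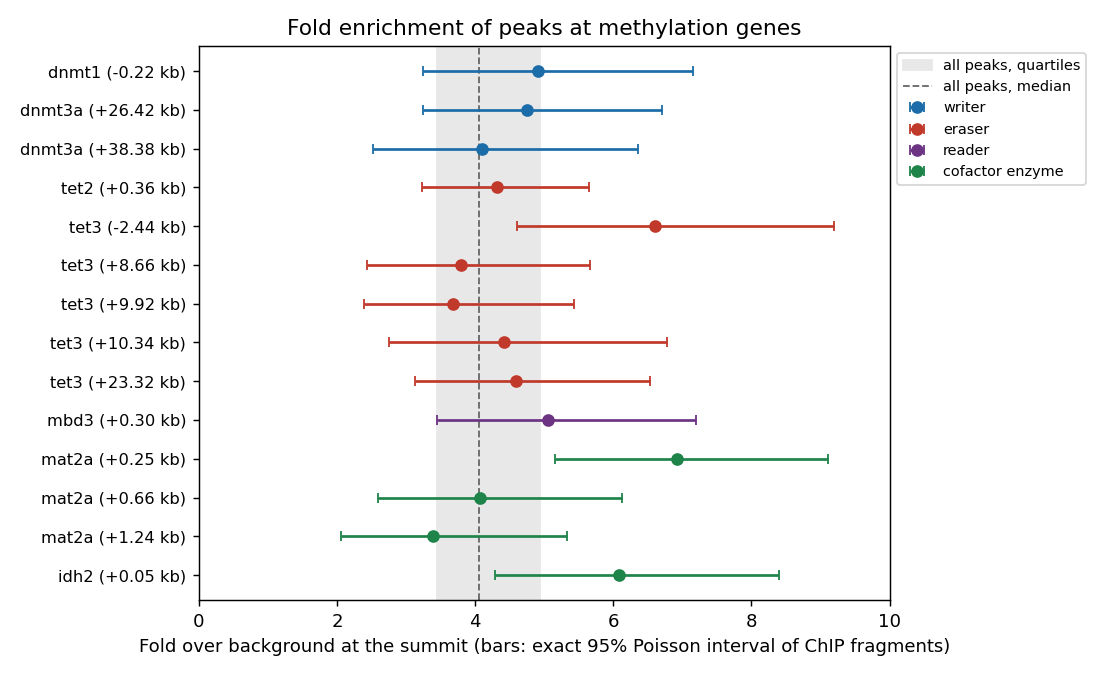
Fold over background at the summit of each of the 14 peaks (horizontal axis, linear), with exact 95% Poisson intervals of the ChIP fragments as bars, and the distance from the TSS beside each gene name. The grey band and dashed line give the quartiles and median of all 6302 peaks, and the folds run from 3.40 to 6.92 with intervals that all overlap.

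The reader mbd3 (ENSXETG00000013593), a subunit of the NuRD complex, had 1 peak at chr1:79743288-79743752. Its summit lay 300 bp downstream of the TSS, with 29 ChIP fragments against a background of 4.93. The fold was 5.06 (3.45 to 7.20), which ranked 1484 of 6302. It was above the median of 4.15 for all peaks within 1 kb of a TSS.

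The related reader mbd2 had no peak that could be credited to it. A gene entry on chromosome 7 carries the name mbd2 in the list, but its description and NCBI gene number are those of dbp, a circadian transcription factor of the PAR bZIP family. The RefSeq table places mbd2 on chromosome 1 and dbp on chromosome 7, next to sphk2 and rpl18, and rpl18 is also beside this entry in the list. The 2 peaks of the entry were weak. They had 20 ChIP fragments against a background of 7.99, 123 bp past the start (fold 2.34, 1.47 to 3.55), and 18 against 4.92, 25.5 kb past it (3.21, 1.97 to 4.98).

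The true place of mbd2 could be followed through its neighbours. In the RefSeq order the nearest genes with a peak on either side are c18orf54 and dcc, both on chromosome 1. Between their nearest summits, 788 kb apart, the list has 0 peaks. This holds if the gene order is the same in the deposited build.

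Peaks of the cofactor enzyme genes had both the highest and the lowest fold among the member peaks at a TSS. The methyl donor enzyme gene mat2a (ENSXETG00000001263) had 3 peaks packed into the first part of a gene of 5.38 kb. The one nearest the start, at chr3:108630758-108631184, had its summit 254 bp past the TSS and 49 ChIP fragments against a background of 6.22. Its fold of 6.92 (5.16 to 9.11) was the highest of the 14 and ranked 448 of 6302, and by adjusted p-value it ranked 361.

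The other mat2a peaks lay further from the start and had lower folds. At 664 bp there were 21 ChIP fragments against 4.41 and a fold of 4.07 (2.59 to 6.12). At 1244 bp there were 17 against 4.30 and a fold of 3.40 (2.06 to 5.32), the lowest of all 14. These summits mark the edge of the 1 kb window, with the peak at 664 bp just inside and the one at 1244 bp just outside. The 3 summits lay within 990 bp, and the intervals of the first and last overlapped narrowly, between 5.16 and 5.32.

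The 2-oxoglutarate enzyme gene idh2 (ENSXETG00000027622) had 1 peak, at chr3:98475252-98475916, centred on its start. The summit lay 46 bp past the TSS, the closest of all members. It held 35 ChIP fragments against a background of 4.92, a fold of 6.09 (4.29 to 8.40) that ranked 700 of 6302. The peak was 665 bp wide and overlapped the start of the gene.

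Closely spaced peaks made up a large part of the member peaks. A group of at least 3 summits within 2 kb held 6 of the 14 peaks, 3 at mat2a and 3 at tet3, whereas 4.43% of all peaks lay in such a group. Likewise 2 of 7 members had 3 or more peaks, against 5.11% of all genes with a peak, with no adjustment for gene length. Peaks of a group share their gene, so the 6 peaks stand for 2 genes and are not independent.

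By position in the deposited gene models, 6 of the 14 summits lay within 1 kb of the member's TSS (42.9%, exact 95% binomial interval 17.7 to 71.1%). Of the rest, 7 lay further inside a gene and 1 upstream. The limit on the starts of dnmt3a and tet3, given above, applies to this share. Of all peaks in gene regions 64.9% lay within 1 kb of a TSS, a share inside that interval. For all peaks the TSS of any paired gene counted. The 14 member peaks were each paired with 1 gene, but only 76.0% of all peaks in gene regions were, so the shares are not fully alike. The interval treats the peaks of a gene as independent, which they are not.

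The member peaks at a TSS had a median fold of 4.98 (range 4.07 to 6.92), against 4.15 over all peaks at a TSS, and 5 of the 6 were above that median. The 7 intragenic member peaks had a median fold of 4.10 (3.40 to 4.75), against 3.98 over all intragenic peaks. Median ChIP fragments were 32 at a TSS and 22 in gene bodies for the members, and 28 and 20 over all peaks of each kind. The difference between promoter and intragenic peaks therefore ran the same way in the members and in the list as a whole, and the upstream peak of tet3 had a fold inside the range of the promoter peaks.

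By role, median folds were 4.75 for the 3 writer peaks, 4.37 for the 6 eraser peaks and 5.08 for the 4 cofactor enzyme peaks, with 5.06 for the 1 reader peak. These values do not order the roles. The highest lower limit of any member interval was 5.16 and the lowest upper limit 5.32, so all 14 intervals shared that range. Over all members the median fold was 4.51, against 4.06 over the whole list. Of the 14 peaks 11 were above 4.06, as 50% of all peaks were. The members were chosen with results of this list known, so these values are not independent of it. Among the stronger peaks by adjusted p-value the 2 medians lay closer or in the other order, as given under the alternative settings. All 14 were paired with 1 gene alone, as were 76.0% of all peaks in gene regions.

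**Figure D3:**
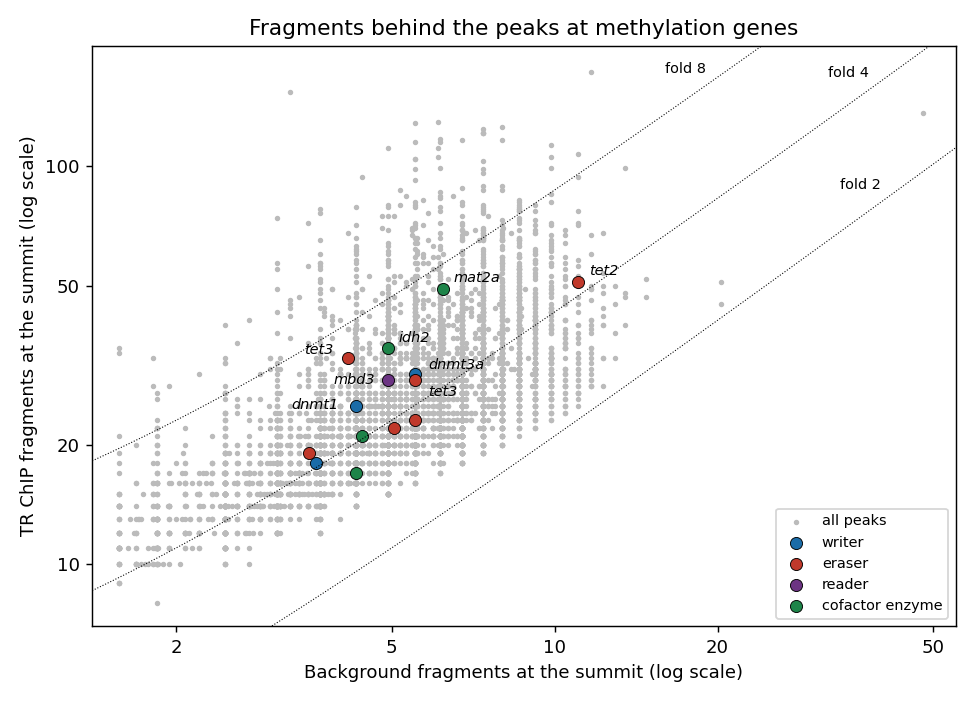
TR ChIP fragments at the summit against background fragments, both on log scales, for all 6302 peaks (grey) and the 14 member peaks (coloured by role), with dotted lines at folds of 2, 4 and 8. The tet2 peak stands to the right with 51 ChIP fragments over 11.1, while mat2a reaches 49 over 6.22 and the other member peaks have 17 to 35.

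Wider lists of the same pathway held peaks in 26 of 62 genes matched to the RefSeq table (41.9%), 7 of them members. With each peak given only to the gene of its nearest TSS, the count was 22, and all 7 members stayed. The share of all named genes was not computed for that setting. Of the 53 other genes 19 held a peak (35.8%, exact 95% binomial interval 23.1 to 50.2%), an interval that includes the 29.8% of all named genes. The names dnmt3b, tet1, zbtb4 and mta3 were not matched. By the deposited gene models, 21 of the 26 genes had a summit within 1 kb of their TSS, as did 68.6% of all genes with a peak. The 21 include mta2 and idh3g, whose deposited models are far longer than those of RefSeq, so their TSS positions are uncertain.

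Among erasers and their base excision partners 7 of 16 genes held a peak (43.8%, exact 95% binomial interval 19.8 to 70.1%). That interval includes the 29.8% of all named genes. Apart from the TET genes, those with a peak were neil1, polb, gadd45g, xrcc1 and tdg. The DNA glycosylase gene neil1 had 50 ChIP fragments against 5.32 and a fold of 8.08 (6.03 to 10.6), 95 bp upstream of its TSS, in a peak also paired with commd4. The repair polymerase gene polb had 55 against 8.60 and a fold of 5.83 (4.42 to 7.56). The gene gadd45g, stress-induced and linked to demethylation, had 2 peaks. The one with the higher fold had 23 against 4.30 and a fold of 4.53 (2.94 to 6.70), 1870 bp upstream. The other gadd45g peak had its summit within 1 kb of the TSS. The glycosylase gene tdg, which removes the bases that TET enzymes oxidise, had a weak peak 4243 bp upstream, also paired with eral1 (2.99, 1.96 to 4.38).

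Readers held peaks in 2 of 9 genes (exact 95% binomial interval 2.81 to 60.0%) and writers with their recruiters in 2 of 4 (6.76 to 93.2%). Both intervals include the 29.8% of all named genes. No peak was listed for uhrf2, a relative of uhrf1, or for mbd4, a DNA glycosylase with a methyl-CpG binding domain.

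NuRD partners of the readers held peaks in 5 of 11 genes (45.5%, exact 95% binomial interval 16.7 to 76.6%), an interval that includes the 29.8% of all named genes. By the deposited gene models all 5 had a summit within 1 kb of the TSS, where 68.6% of all genes with a peak did, but the model of mta2 is in doubt. They were mta2, gatad2a, chd3, mta1 and rbbp4. The scaffold gene gatad2a had 45 ChIP fragments against 6.14 and a fold of 6.44 (4.73 to 8.57), and the remodelling ATPase gene chd3 had 25 against 3.24 and a fold of 6.13 (4.05 to 8.94). The peak of mta2, with 43 fragments against 4.41 and a fold of 8.14 (5.94 to 10.9), was also paired with an unnamed gene, and its deposited model of 197 kb is far longer than the 16.9 kb of RefSeq, so its position, 956 bp past the deposited TSS, is uncertain. The histone deacetylase genes hdac1 and hdac2 had no listed peak.

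Enzymes of the methyl donor cycle and of 2-oxoglutarate held peaks in 10 of 22 genes (exact 95% binomial interval 24.4 to 67.8%). That interval includes the 29.8% of all named genes. The adenosylhomocysteinase-like genes ahcyl2 and ahcyl1 are counted by their likeness to ahcy, and no enzyme activity in the cycle is implied. They had 45 and 47 ChIP fragments against 6.14 and 6.76. Their folds were 6.44 (4.73 to 8.57), 1088 bp past the TSS, and 6.19 (4.58 to 8.18), 131 bp past it. The gene idh3g, a subunit of the NAD-dependent isocitrate dehydrogenase, had 4 peaks with a highest fold of 6.39 (4.22 to 9.31), 146 kb into a deposited model of 173 kb, where RefSeq has 13.7 kb. That peak cannot be assigned to idh3g with confidence. Among the others, shmt2, mthfd1, ogdh and idh3b had highest folds of 2.53 to 4.14. No peak was listed for idh1, the cytosolic counterpart of idh2, for mat2b, the regulatory partner of mat2a, or for ahcy, which clears the product of methylation. Their neighbours were not followed as for mbd2, and peaks at genes that could not be named would be missed.

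**Figure D4:**
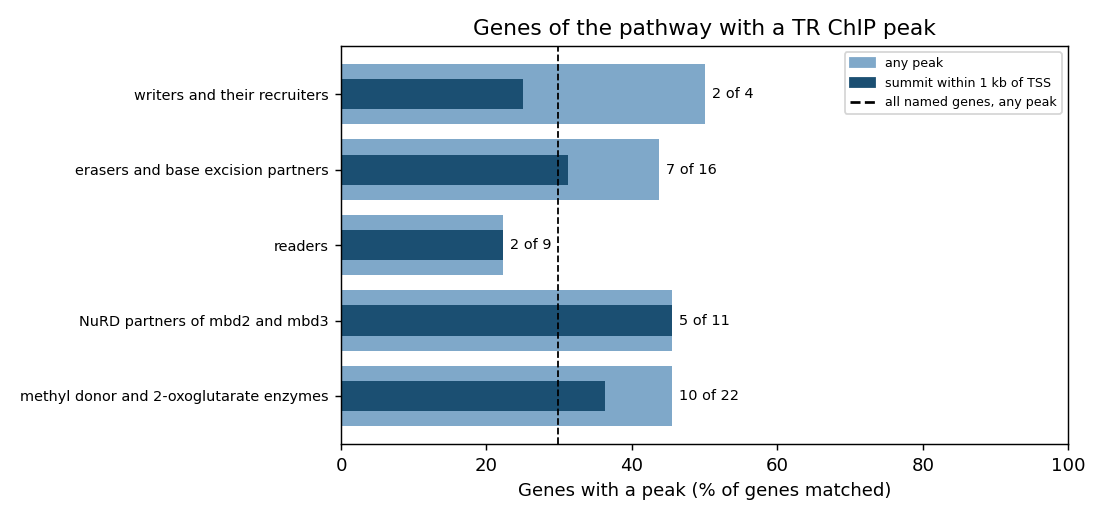
Share of genes in each list (horizontal axis, % of genes matched) that held a TR ChIP peak (light bars) or a summit within 1 kb of the TSS (dark bars), with the share of all named genes with a peak, 29.8%, as a dashed line. Readers lie below the line with 2 of 9 genes. The other 4 lists lie above it, from 43.8% (7 of 16 erasers and partners) to 50% (2 of 4 writers and recruiters). The exact 95% binomial interval of each list includes 29.8%. With 4 to 22 genes per list these intervals are wide, and they cannot tell whether a list differs from that share.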

How the data were processed

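One peak list from 1 TR ChIP library was analysed, in which 7848 lines each give 1 peak with 1 gene or no gene. MACS2 2.2.6, BWA 0.7.17 and fastp 0.20.1 are among the tools in the submitters' processing notes, which are used here without their roles. The build and the peak threshold are not given in the sources used here. The deposited enrichment was read as a linear fold ratio. The deposited p-value and adjusted p-value are given as −log10 (lowest adjusted value 1.31). The deposited score is 10 times the latter, rounded down.

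Whole ChIP fragments were solved from fold and p-value (P above the count, Poisson) by a script tested on simulated data, and −log10 p was met to within 2.48e-05. Deposited names were kept where RFAM, UniProt, miRBase, Xenbase or RefSeq mRNA was the source of the description. Descriptions with an NCBI gene number took that number's RefSeq symbol (UCB_Xtro_10.0), and other names were dropped. Python 3.11.15, pandas 2.3.3 and SciPy 1.17.1 were used.

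The members and gene lists were chosen with earlier results of these data known. Of pathway genes that are no members, each list's 3 highest folds were named with values, where it had that many; tdg was added after its value was seen. Results of 2 listed genes are not reported here.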

Additional observations from a re-analysis of the deposited data

How the results depend on the processing

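With 1 library per group, nothing could be left out. No paired analysis was possible because each group has 1 library. Of 24 values from alternative settings, 20 stayed near the value reported (counts within 1.5 times, median fold within 1.08, the SD of the member folds). Some of these could not move. Each member peak was paired with 1 gene, so keeping the nearest TSS left the member values fixed. Keeping the gene body and 1 kb upstream could not remove a summit within 1 kb of the TSS. The limit of 1.08 is also wider than the gap between the median folds of 4.51 for members and 4.06 for all peaks. The 20 is therefore no measure of stability. The 4 values that moved came from the 1000 strongest peaks by adjusted p-value (1001 with a tie), where fewer peaks are kept by construction. There 4 of the 9 genes held a peak (tet2, tet3, mat2a and idh2), and 3 summits lay within 1 kb of the TSS. Of the 14 member peaks 4 were kept, against 15.9% of all peaks. The median fold was 6.34 (6.60 over all peaks kept), and 11 pathway genes held a peak. At this cut the share of all named genes with a peak was not computed. The gene counts therefore have no background beside them. With names as deposited, 8 genes held a peak, through the entry named mbd2. With the 3154 stronger peaks of the list (ties included) all 7 genes kept a peak. Of the 14 member peaks 8 remained, where 50% of all peaks did by construction. The 8 had a median fold of 4.98, against 4.91 over all peaks kept. The share of all genes with a peak that kept one at this cut was not computed. Windows of 0.5 and 2.5 kb gave 5 and 8 summits near the TSS. Folds rest on 17 to 51 ChIP fragments, which limits any ordering of the members.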

Other observations

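Some further enzymes of one-carbon metabolism, of nucleic acid methylation and of the removal of methyl groups, chosen after their values were seen, also held TR ChIP peaks. The gene mthfd2, a mitochondrial enzyme of one-carbon metabolism, is the next gene with a peak beyond the 3′ end of tet3, and its nearest summit lay 46.4 kb from that end. It had peaks 150 bp and 591 bp past its TSS with 23 and 28 ChIP fragments against backgrounds of 5.44 and 6.76, and folds of 3.72 (2.42 to 5.51) and 3.74 (2.53 to 5.34). The gene trdmt1, a relative of the DNA methyltransferases that acts on tRNA, had 1 peak 300 bp past its TSS with 28 ChIP fragments against 6.76 and a fold of 3.74 (2.53 to 5.34). The dioxygenase gene alkbh1 had 1 peak 44 bp past its TSS with a fold of 4.59 (3.13 to 6.53), which was paired with 3 genes.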
